A study of Mus musculus with 4 samples.

Results

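The comparison concerns mature CD4+ thymocytes with and without the microRNA gene Mir142. It sets the array of miR-142-/- Qa2+ cells against the array of wild type (WT, miR-142+/+) Qa2+ cells, which are 2 of the 4 arrays of the study. The members are the genes on these arrays: of 19856 genes with a single-gene probe set, 12550 lay above background, and 12205 of these remained once 345 X- and Y-linked genes were left out. Both groups were 8-week-old C57BL/6n mice. Thymi of 5 WT mice (3 females and 2 males) and of 4 miR-142-/- mice (1 female and 3 males) were pooled by genotype. CD8+ cells were depleted with magnetic beads, and cells that were CD4+ CD8- CD69- Qa2+ were sorted by flow cytometry. No Cre or cell type restriction is given in the labels, so other blood cells of the miR-142-/- mice may lack the microRNA as well. The remaining 2 arrays hold the less mature CD69+ Qa2- cells of the same pools and are used here as values set beside. The free text of the miR-142-/- Qa2- sample speaks of Qa2+ cells, whereas its title and sorting entry give Qa2-, which was followed.

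MicroRNAs are short RNAs that guide Argonaute proteins to messenger RNAs, mostly through bases 2 to 8 of the microRNA, the seed, and lower the stability or translation of the paired message. Mir142 is among the most abundant microRNA genes of blood cells, and its hairpin yields a 5p and a 3p strand that are both used. In the thymus, positively selected CD4 single-positive cells first carry CD69 and no Qa2. They later lose CD69, gain the class Ib molecule Qa2 and the receptors for leaving the thymus, and become the cells studied here. The mature strands that the miR-142-/- cells lack are shown because their absence defines the comparison, with the seed in capitals (RefSeq, GRCm38.p6, chromosome 11, plus strand). The 5p strand lies at chr11:87756867-87756887 and the 3p strand at chr11:87756903-87756925.
mmu-miR-142a-5p: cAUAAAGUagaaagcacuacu
mmu-miR-142a-3p: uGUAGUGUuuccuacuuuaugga

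Values are log2 expression levels, and a difference is miR-142-/- minus WT on the log2 scale. Background was set at log2 5.87, below which 95% of the mean levels of 1192 smell and pheromone receptor genes lay. Where the dimmer array lay below it, the fold is given as "at least", against that threshold, and the log2 difference may be compressed. With 1 array per group there is no replicate check and no p-value, so sizes are described. For scale, the differences of the receptor genes had a standard deviation of 0.18, a measure of noise near background that does not stand for variation among mice. In these bulk samples fewer cells of a type and less RNA per cell cannot be told apart.

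The Mir142 probe set read 9.41 in WT and 4.88 in miR-142-/- Qa2+ cells, where it was below background, so it was at least 11.6-fold lower. On the Qa2- arrays it read 10.11 in WT and 5.29 in miR-142-/-. Genes of CD4 T cell identity were alike: none of the 17 above background was 1.5-fold apart, and their median difference was -0.01. Cd4 itself read 12.50 in WT and 12.36 in miR-142-/-. Cd69, whose protein the sort excluded, had the levels 10.55 in WT and 10.54 in miR-142-/-. Of the class Ib genes related to Qa2, H2-Q4 read 11.03 in WT and 11.13 in miR-142-/- and H2-Q5 10.17 in WT and 9.92 in miR-142-/-. Cd8a had a difference of -0.22, while Cd8b1, which encodes the other chain of the CD8 coreceptor, read 9.98 in WT and 8.75 in miR-142-/- and was 2.34-fold lower.

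Sex-linked transcripts went against the labels, by which each pool mixed females and males. Xist, which coats the silenced X chromosome, read 12.14 in WT and 4.83 in miR-142-/- Qa2+ cells. Y-linked Eif2s3y read 4.39 and 10.58, Kdm5d 4.99 and 9.80, and Uty 5.09 and 9.81, in the same order. The Qa2- arrays showed the same division, with Xist at 12.67 and 5.06. Every genotype difference below therefore also sets arrays with these sex-linked levels against each other, and the part of sex in the other genes cannot be told apart from genotype.

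Among the 12205 genes compared, 170 (1.39%) reached a level at least 2-fold higher and 228 (1.87%) lower by that fold in the mature cells without miR-142. At 1.5-fold the counts were 550 (4.51%) and 597 (4.89%). The median difference of all genes was 0.00, with the 5th and 95th percentiles at -0.58 and 0.55. At least 4-fold apart were 25 genes higher and 34 lower. Of 1192 receptor genes, 7 were 1.5-fold apart and 1 was 2-fold apart. In Qa2- cells of the same pools, 85 of the 170 and 118 of the 228 genes passed 2-fold there too, with the same sign, while 34 and 31 were less than 1.5-fold apart there. Both stages came from the same pools, so the Qa2- values are no independent check. The share of all 12205 genes past these lines in Qa2- cells was not counted. The overlap is thus given without an expected size.

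**Figure D1:**
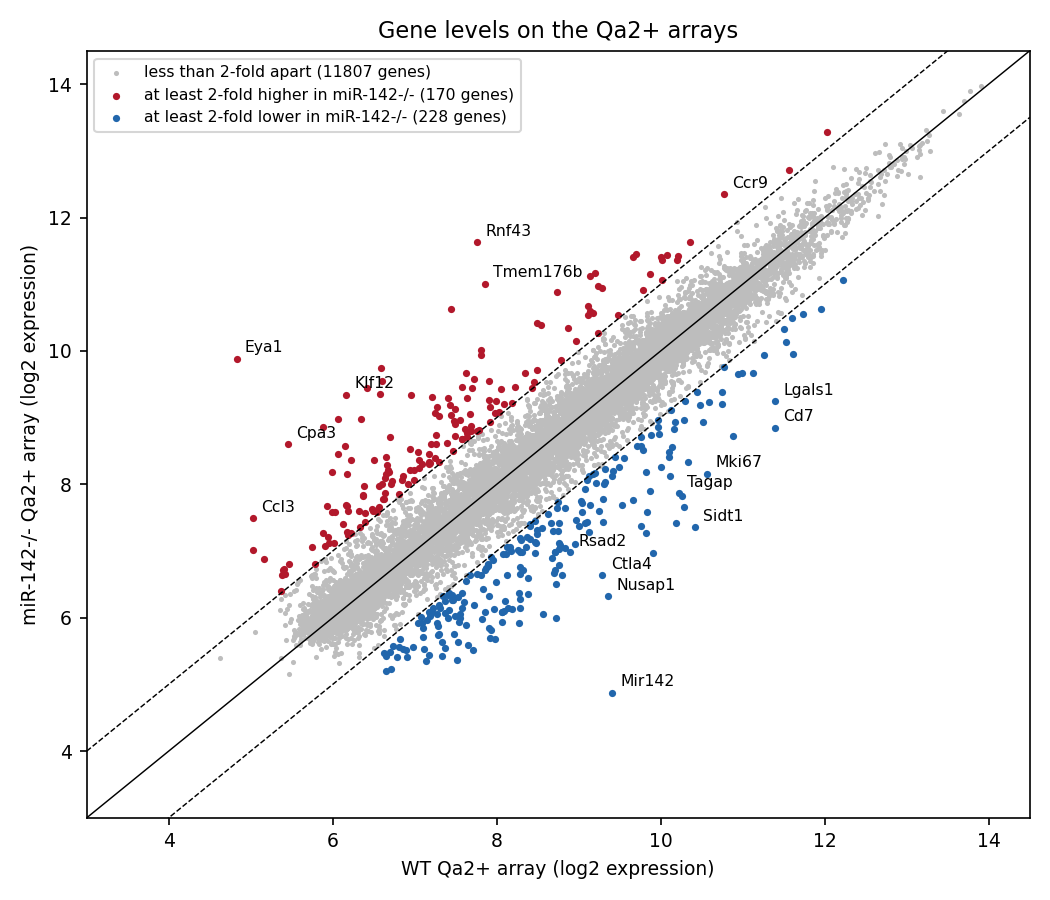
Log2 expression of each of 12205 genes on the WT Qa2+ array (x axis) and the miR-142-/- Qa2+ array (y axis). The solid line marks equal levels and the dashed lines a 2-fold difference; 170 genes lie above the upper dashed line and 228 below the lower one.

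The largest upward difference of the ranked genes, which leave out predicted genes and antigen receptor segments, was that of Eya1, a transcriptional coactivator and phosphatase of organ development. It read 4.83 in WT and 9.88 in miR-142-/- Qa2+ cells, at least 16.2-fold higher, and 4.87 and 10.29 in the Qa2- cells. Both WT arrays were thus below background and both miR-142-/- arrays well above it. Of its DNA-binding homeodomain partners, Six2, Six3 and Six5 were above background and had differences of -0.34, -0.02 and -0.06. Klf12, a transcriptional repressor of the Kruppel-like family, read 6.16 in WT and 9.35 in miR-142-/- (9.12-fold higher). Klf9, a relative that glucocorticoids induce in many tissues, read 6.95 in WT and 9.34 in miR-142-/- (5.21-fold higher). The third Kruppel-like or Sp member past 1.5-fold upward was Sp6, with a difference of 0.92, and Klf2, which drives the genes of thymic exit, was the single one past it downward (10.34 in WT and 9.47 in miR-142-/-).

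Some of the highest differences sat next to Mir142 on chromosome 11. Rnf43, a ubiquitin ligase that removes Wnt receptors from the cell surface, read 7.76 in WT and 11.63 in miR-142-/-, a 14.7-fold higher level. Tspoap1, the immediate neighbour on the other side, read 6.58 in WT and 9.75 in miR-142-/- (8.96-fold higher). The neighbouring Supt4 transcripts are measured by probe sets that list both Supt4a and Supt4b, and these had differences of 1.22 and 1.26. Further out the levels were closer: Mtmr4 read 9.21 in WT and 9.12 in miR-142-/-, Septin4 6.12 in WT and 6.03 in miR-142-/-, Dynll2 8.93 in WT and 8.70 in miR-142-/- and Srsf1 10.67 in WT and 10.80 in miR-142-/-. Mpo, a myeloid granule enzyme gene, read 5.88 in WT and 6.50 in miR-142-/-, close to background, and was under 1.5-fold apart after median centring. Prr11, a gene of dividing cells, lay in the other direction at 8.06 in WT and 6.08 in miR-142-/-, as did the cilium gene Mks1 with a difference of -0.63. In all, 16 listed genes of this region were above background, of which 3 were at least 1.5-fold higher and 3 lower, Mir142 included.

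The anterior genes of the Hoxa cluster were higher together with a gene beside the cluster. Hox genes encode transcription factors that pattern the body axis and, in blood, are mostly used by immature progenitors. Hoxa5 read 5.88 in WT and 8.86 in miR-142-/- (7.86-fold higher), Hoxa6 6.35 in WT and 8.98 in miR-142-/- and Hoxa7 6.70 in WT and 8.71 in miR-142-/-. Smaller differences were measured for Hoxa3 (1.39), Hoxa2 (1.02), Hoxa9 (0.87) and Hoxa4 (0.38). Hoxa10, Hoxa11 and Hoxa13, at the other end, were below background when averaged over the arrays, with differences of 0.24, 0.17 and 0.08. Skap2, an adaptor protein gene beside the cluster, read 7.69 in WT and 9.45 in miR-142-/- (3.38-fold higher), while Snx10 and Hibadh further out had differences of -0.14 and 0.04. In the whole list of developmental regulators, 9 of 28 genes above background (32.1%) were at least 1.5-fold higher, against 4.51% of all genes, and none was lower; its median difference was 0.23. Besides Eya1 and the Hoxa genes, these were Igf2bp3, an RNA-binding protein of fetal tissue (7.58 in WT and 9.46 in miR-142-/-), and Pbx3, a Hox cofactor (6.12 in WT and 6.82 in miR-142-/-).

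**Figure D2:**
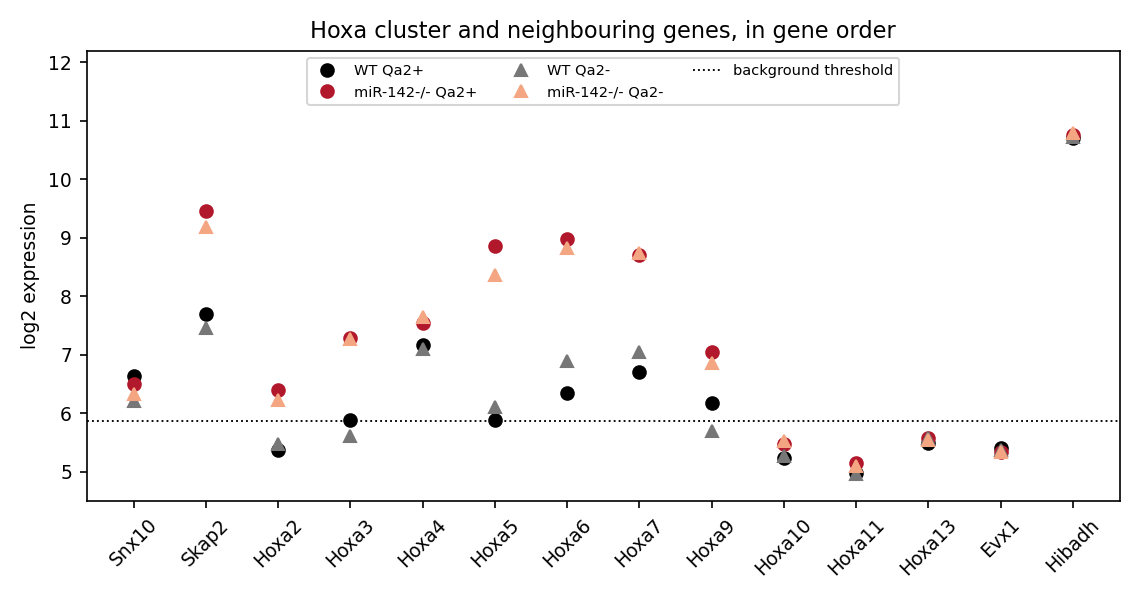
Log2 expression (y axis) of the measured genes in and beside the Hoxa cluster, in chromosomal order (x axis), on the 4 arrays; the dotted line is the background threshold of 5.87. The miR-142-/- arrays lie above the WT arrays from Skap2 to Hoxa9, and the arrays are close together at both ends.

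The other large upward differences belonged to genes of varied roles. The paired membrane protein genes Tmem176b and Tmem176a, which lie side by side and are known from dendritic and type 17 helper T cells, read 7.85 in WT and 11.01 in miR-142-/- and 6.42 in WT and 9.45 in miR-142-/-. Nrp2, a semaphorin and growth factor receptor, read 6.58 in WT and 9.35 in miR-142-/- (6.84-fold higher). Its relative Nrp1, a surface marker of thymus-derived regulatory T cells, lay the other way at 8.69 in WT and 7.83 in miR-142-/-. Akr1c18, which inactivates progesterone and is high in newly selected thymocytes, read 6.07 in WT and 8.98 in miR-142-/-, and its Qa2- levels were 9.30 and 11.96. Coro2a, a coronin of the actin cytoskeleton, read 8.74 in WT and 10.88 in miR-142-/- and Dstn, the actin-severing destrin, 7.40 in WT and 9.29 in miR-142-/-. Genes best known from neurons were among them: Map2, a microtubule-associated protein gene, read 6.06 in WT and 8.45 in miR-142-/- and Nrn1, neuritin, 6.15 in WT and 8.57 in miR-142-/-. The transcription factor gene Mef2c read 5.99 in WT and 8.18 in miR-142-/- (4.57-fold higher), and Zfp608, a zinc finger gene, 7.21 in WT and 9.31 in miR-142-/-. Atp8a2, a phospholipid flippase, read 7.81 in WT and 9.94 in miR-142-/-. Fam163b, Sh3bgrl2, Neurl1b, Adamtsl2 and Tmie completed this group, with folds between 3.95 and 9.13.

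**Figure D3:**
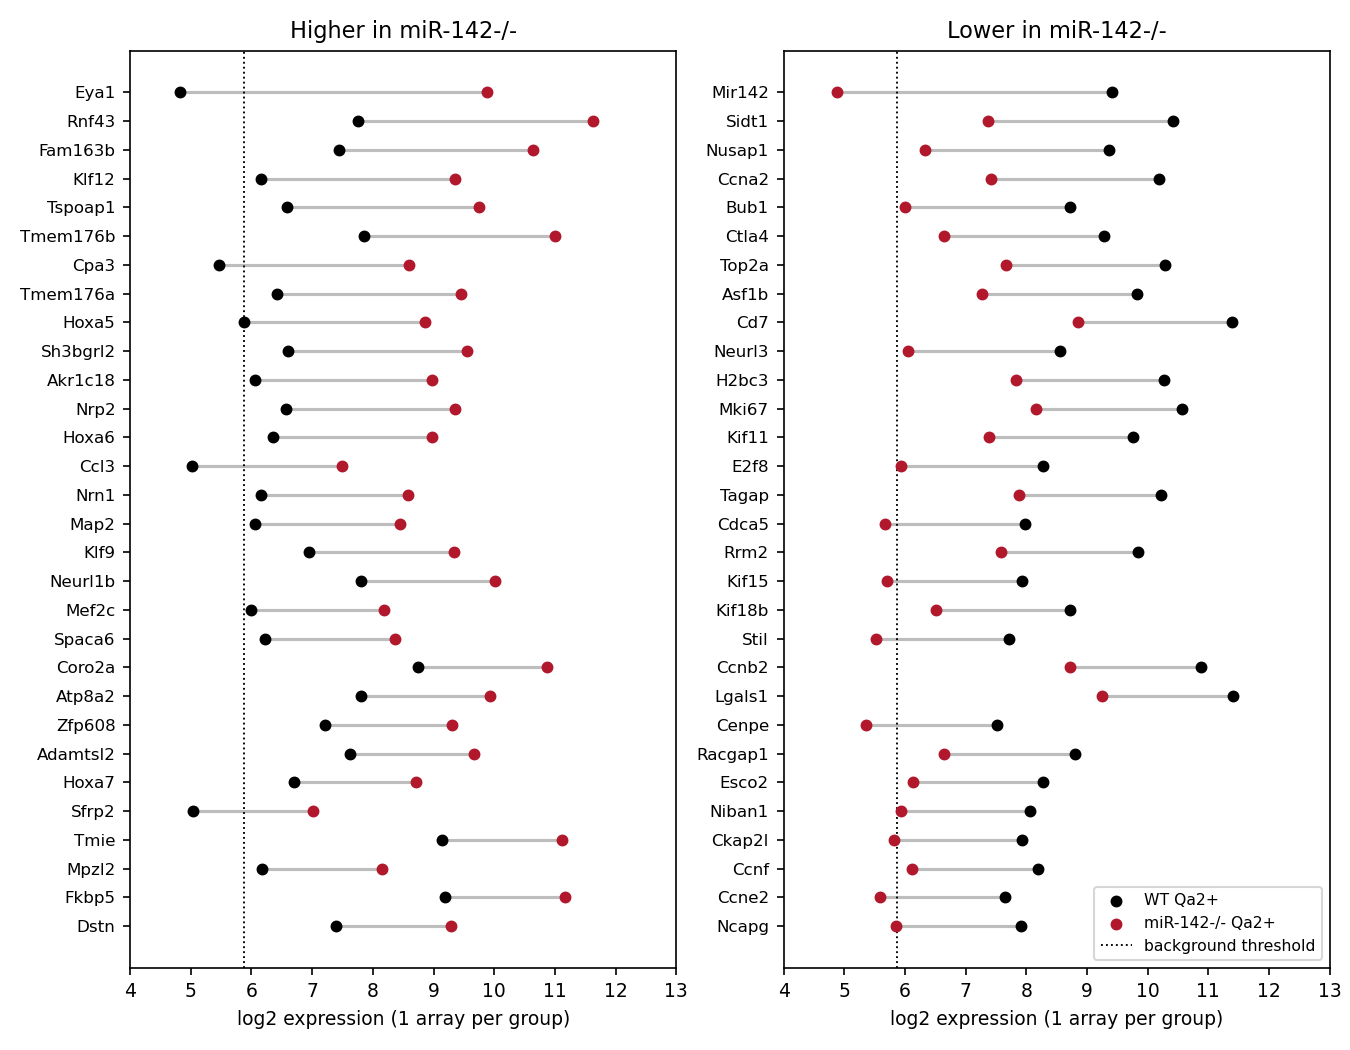
Log2 expression (x axis) on the WT Qa2+ array (black) and the miR-142-/- Qa2+ array (red) for the 30 genes ranked first by size of difference, higher and lower (y axis). The dotted line marks the background threshold; the left panel runs from Eya1 to Dstn and the right panel from Mir142 to Ncapg.

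Many microRNA genes have probe sets of their own, which cannot tell precursors from mature strands here. Of 104 such probe sets above background, 9 were at least 1.5-fold higher and 1, Mir142, was lower, with a median difference of 0.08. Mirlet7e read 6.66 in WT and 8.15 in miR-142-/-, and the adjoining gene Spaca6 (6.22 in WT and 8.36 in miR-142-/-) was higher too, whereas the cluster members Mir99b and Mir125a had differences of 0.26 and 0.30. Mir15b read 8.35 in WT and 9.67 in miR-142-/- and its cluster partner Mir16-2 6.94 in WT and 8.22 in miR-142-/-. Their host gene Smc4 had a difference of 0.18, and in Qa2- cells Mir15b and Mir16-2 had differences of -0.03 and 0.18. The mature strands show that the Mir15b and Mir16-2 products share 1 seed and that let-7e has another (RefSeq, GRCm38.p6, seeds in capitals). They lie at chr3:69009775-69009796, chr3:69009918-69009939 and chr17:17830366-17830387, all on the plus strand.
mmu-miR-15b-5p: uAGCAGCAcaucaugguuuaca
mmu-miR-16-5p: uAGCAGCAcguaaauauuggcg
mmu-let-7e-5p: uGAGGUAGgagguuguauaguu
The proteins that make and use microRNAs did not differ to this extent. Of 30 such genes, none was 1.5-fold apart, with a range from -0.43 to 0.42.

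Genes of mitosis and DNA replication were mostly lower. In miR-142-/- Qa2+ cells, 57 of 61 mitosis and spindle genes (93.4%) were at least 1.5-fold lower, against 4.89% of all genes, none was 1.5-fold higher, and the median difference was -1.45. The 4 others were Ndc80, Pttg1, Ska2 and the condensin gene Smc4, which alone of the list lay above 0. Nusap1, which bundles spindle microtubules, read 9.36 in WT and 6.33 in miR-142-/- (8.21-fold lower). Ccna2, the cyclin of S and G2 phase, read 10.18 in WT and 7.42 in miR-142-/-, and Ccnb2, a cyclin of mitosis, 10.88 in WT and 8.72 in miR-142-/-. The spindle checkpoint kinase gene Bub1 read 8.72 in WT and 6.00 in miR-142-/- (6.62-fold lower), near background in miR-142-/-. Mki67, the common marker of cycling cells, read 10.56 in WT and 8.16 in miR-142-/-, and Top2a, the topoisomerase that untangles replicated chromosomes, 10.29 in WT and 7.67 in miR-142-/-. Top2a has 2 probe sets, and their mean gave a difference of -1.21 in place of -2.62. The spindle motor gene Kif11 read 9.76 in WT and 7.38 in miR-142-/-. The further motors Kif15 (7.92 in WT and 5.70 in miR-142-/-) and Cenpe (7.51 in WT and 5.36 in miR-142-/-) could no longer be told from background there and were at least 4.16-fold and at least 3.13-fold lower.

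Replication genes lay in the same direction with smaller sizes. Of 43 DNA replication genes, 26 (60.5%) were at least 1.5-fold lower, none was higher, and the median difference was -0.63. Rrm2, the regulated subunit of ribonucleotide reductase, read 9.84 in WT and 7.58 in miR-142-/- (4.77-fold lower). The polymerase gene Pole read 8.38 in WT and 6.35 in miR-142-/-, and Dtl, a substrate receptor that removes licensing factors, 8.77 in WT and 6.78 in miR-142-/-. Ccne2, a cyclin of replication onset, read 7.65 in WT and 5.59 in miR-142-/-, so it was at least 3.44-fold lower. Chaf1a, a chaperone that places histones on new DNA, had a difference of -1.56, and the thymidylate synthase gene Tyms of -1.44. The licensing gene Cdc6 had one of -1.42 and the clamp loader subunit Rfc4 of -1.14. The sliding clamp gene Pcna was closer, at 11.96 in WT and 11.47 in miR-142-/-, as was the helicase subunit Mcm7 at 10.03 in WT and 9.62 in miR-142-/-.

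Homologous recombination genes, which repair broken replication forks, had a median of -0.48 with 15 of 34 at least 1.5-fold lower and 1, the mismatch repair gene Msh6 (8.62 in WT and 9.37 in miR-142-/-), higher. The checkpoint kinase gene Chek1 read 8.29 in WT and 6.65 in miR-142-/-, the glycosylase Neil3 8.27 in WT and 6.38 in miR-142-/- and Brca1 7.45 in WT and 6.35 in miR-142-/-. Among 36 cell cycle regulators the E2F genes E2f8 (8.28 in WT and 5.93 in miR-142-/-), E2f2 (8.77 in WT and 7.03 in miR-142-/-), E2f1 (8.47 in WT and 6.97 in miR-142-/-) and E2f7 (-0.99) were lower. The kinase inhibitor Cdkn2c, which is made during the cycle, read 8.06 in WT and 6.09 in miR-142-/-, and the D-type cyclin Ccnd2 had a difference of -0.63 (under 1.5-fold after quantile scaling). Tfdp2, a partner of E2F proteins, had one of 0.75. The list median was -0.06.

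Replication-dependent histone genes divided into both directions. Of 17 above background, 8 were at least 1.5-fold lower and 3 higher. H2bc3 read 10.27 in WT and 7.83 in miR-142-/- (5.42-fold lower), the linker histone H1f5 10.10 in WT and 8.40 in miR-142-/- and H4c6 10.10 in WT and 8.48 in miR-142-/-. In contrast H2bc4 read 8.54 in WT and 10.38 in miR-142-/- (3.58-fold higher), the linker histone H1f2 9.24 in WT and 10.27 in miR-142-/- and H2bc8 8.02 in WT and 8.80 in miR-142-/-. Close paralogs can share probes, so single histone genes are uncertain. The histone chaperone gene Asf1b, which feeds histones to new DNA, read 9.82 in WT and 7.27 in miR-142-/- (5.84-fold lower). Across the 5 proliferation lists, 79 of 191 genes were at least 2-fold lower and 2 were higher. Without them, a count chosen after seeing the data, 168 genes passed 2-fold upward and 149 downward.

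Promoters of the mitosis genes were examined for the paired elements known from genes of late cell cycle, CCAAT and the cell cycle homology region TTTGAA, on both strands of the 250 bases before and 50 after each start (RefSeq, GRCm38.p6). Promoters were found for 48 of the 57 lower genes, 53 promoters in all. CCAAT was present in 39 (73.6%), against 37.4% of all 32851 promoters, and TTTGAA in 37 (69.8%), against 17.9%. Both were present in 31 (58.5%), against 6.95%. The 4 other members had 3 promoters, of which 1 held CCAAT, 1 held TTTGAA and 0 held both. These are too few to set lower members against the others, so the shares describe the list. A match is a description of letters and not a site or a cause. The upstream stretches of Top2a, chr11:99024190-99024439, minus strand, and Mki67, chr7:135716447-135716592, minus strand, are shown as examples of this arrangement, with matches on either strand in capitals.
Top2a: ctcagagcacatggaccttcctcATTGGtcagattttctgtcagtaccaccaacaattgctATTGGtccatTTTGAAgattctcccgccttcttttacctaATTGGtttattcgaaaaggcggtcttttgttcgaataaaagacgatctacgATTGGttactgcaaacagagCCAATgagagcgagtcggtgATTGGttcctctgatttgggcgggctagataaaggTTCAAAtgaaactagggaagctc
Mki67: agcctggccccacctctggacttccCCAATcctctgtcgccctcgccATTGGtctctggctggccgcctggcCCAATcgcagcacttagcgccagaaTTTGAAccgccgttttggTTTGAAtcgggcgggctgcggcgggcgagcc
The E2F letters TTTCCCGC or TTTGGCGC were present in 7 of 27 promoters of lower replication genes (25.9%), in 4 of 14 promoters of the other replication genes (28.6%) and in 1.56% of all promoters. The lower and the other members of that list thus held them at similar shares. Dtl, chr1:191575545-191575577, minus strand, and Cdc6, chr11:98907988-98908045, plus strand, carry 1 match each.
Dtl: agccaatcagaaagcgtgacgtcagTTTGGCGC
Cdc6: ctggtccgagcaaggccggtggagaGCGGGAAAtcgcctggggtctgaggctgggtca

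Interferon response genes were lower as a group. Type I interferons act through a surface receptor and its kinases to switch on antiviral genes, and mature thymocytes show a low tonic form of this response. Of 52 listed genes with a signal, 18 (34.6%) were at least 1.5-fold lower, against 4.89% of all genes, 1 was higher, and the median difference was -0.38. Rsad2, viperin, read 8.89 in WT and 6.98 in miR-142-/- (3.76-fold lower). The synthetases of the 2-5A antiviral messenger were lower together: Oas2 read 10.75 in WT and 9.21 in miR-142-/-, Oas3 9.32 in WT and 8.23 in miR-142-/- and Oas1a 7.87 in WT and 6.74 in miR-142-/-. Ifit3 and Ifit1, which bind foreign RNA, read 11.12 in WT and 9.67 in miR-142-/- and 11.26 in WT and 9.94 in miR-142-/-. Ifi27l2a, a membrane protein gene strongly induced by interferon, read 10.99 in WT and 9.66 in miR-142-/-, and Ms4a4c, a surface protein of mature T cells, 9.82 in WT and 8.19 in miR-142-/-. Lgals3bp, a secreted glycoprotein, had a difference of -1.11. The regulator Irf7 had a difference of -0.79 and the feedback inhibitor Usp18 of -0.85. Iigp1, a GTPase induced mainly by interferon gamma, was the single one 1.5-fold higher (8.94 in WT and 9.59 in miR-142-/-), and the members with the highest signal, Ly6e and Sp100, had differences of 0.15 and -0.18.

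The response element letters GAAANNGAA were searched in the same promoter windows on both strands. They were present in 6 of 14 promoters (42.9%) of the lower interferon genes, in 17 of 34 promoters (50%) of the other listed genes and in 8.56% of all promoters. Members that were lower and members that were not thus held the element at similar shares. Upstream stretches of Rsad2, chr12:26456538-26456596, minus strand, and Ifit3, chr19:34583349-34583460, plus strand, are shown because both genes are among the largest differences, with the matches in capitals.
Rsad2: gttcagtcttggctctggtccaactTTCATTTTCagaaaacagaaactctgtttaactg
Ifit3: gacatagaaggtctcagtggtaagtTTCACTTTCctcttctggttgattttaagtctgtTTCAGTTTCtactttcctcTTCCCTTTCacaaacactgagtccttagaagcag

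Genes of regulatory T cells, a CD4+ lineage that the sort does not separate, were more often lower than higher. Of 36 above background, 17 (47.2%) were at least 1.5-fold lower and 4 (11.1%) higher, against 4.89% and 4.51% of all genes, with a median difference of -0.52 against -0.11 in Qa2- cells. The median level of the list was 9.05 in WT and 8.58 in miR-142-/- Qa2+ cells. Ctla4, an inhibitory receptor, read 9.29 in WT and 6.64 in miR-142-/- (6.28-fold lower). The integrin chains Itgae and Itgb8, of which the latter activates TGF-beta, read 7.91 in WT and 6.33 in miR-142-/- and 7.29 in WT and 5.88 in miR-142-/-. Il2rb, a chain of the interleukin-2 receptor, read 10.75 in WT and 9.38 in miR-142-/-, whereas Il2ra, the other chain typical of these cells, read 10.88 in WT and 11.14 in miR-142-/-. The TGF-beta anchor Lrrc32 read 9.32 in WT and 8.03 in miR-142-/- and the chemokine receptor Ccr6 7.33 in WT and 5.63 in miR-142-/-. Entpd1, which breaks down extracellular ATP, ended below background at 6.81 in WT and 5.57 in miR-142-/-. Higher were Gpr83, an orphan receptor of this lineage (9.87 in WT and 11.15 in miR-142-/-), the transcription factor gene Maf (7.68 in WT and 9.05 in miR-142-/-), the chemokine receptor Ccr8 (9.78 in WT and 10.92 in miR-142-/-) and the nucleotidase Nt5e (9.66 in WT and 10.30 in miR-142-/-). Foxp3, the defining factor, is X-linked and was left out. The part of a different share of such cells in these results was not tested.

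Genes of effector, memory and innate-like T cells had a median of -0.35, with 13 of 41 (31.7%) at least 1.5-fold lower and 4 (9.76%) higher, against 4.89% and 4.51% of all genes. Lgals1, a galectin of activated T cells, read 11.40 in WT and 9.24 in miR-142-/- (4.46-fold lower). Zbtb16, the PLZF factor that defines innate-like T cells, read 8.71 in WT and 6.99 in miR-142-/- and the LIM protein gene Crip1 11.62 in WT and 9.96 in miR-142-/-. The tissue-homing receptor Cxcr6 read 7.37 in WT and 6.07 in miR-142-/- and the chemokine Ccl5 8.37 in WT and 7.20 in miR-142-/-. Tbx21, the T-bet factor of type 1 helper cells, had a difference of -0.68, and Cd44, an adhesion receptor of memory cells, of -0.81. Ccl3, an inflammatory chemokine, was in the other direction at 5.03 in WT and 7.49 in miR-142-/-, at least 3.08-fold higher, and Id2 had a difference of 0.82. The CD8 single-positive list had 4 of 12 genes at least 1.5-fold lower, led by Cd7 (11.39 in WT and 8.85 in miR-142-/-, 5.81-fold lower), an immunoglobulin family receptor that CD4 thymocytes carry too. Runx3, the factor of the CD8 lineage, read 9.64 in WT and 9.65 in miR-142-/-. The median level of the effector list was 8.20 in WT and 7.66 in miR-142-/-, and the part of other T cells in the gate was not tested.

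**Figure D4:**
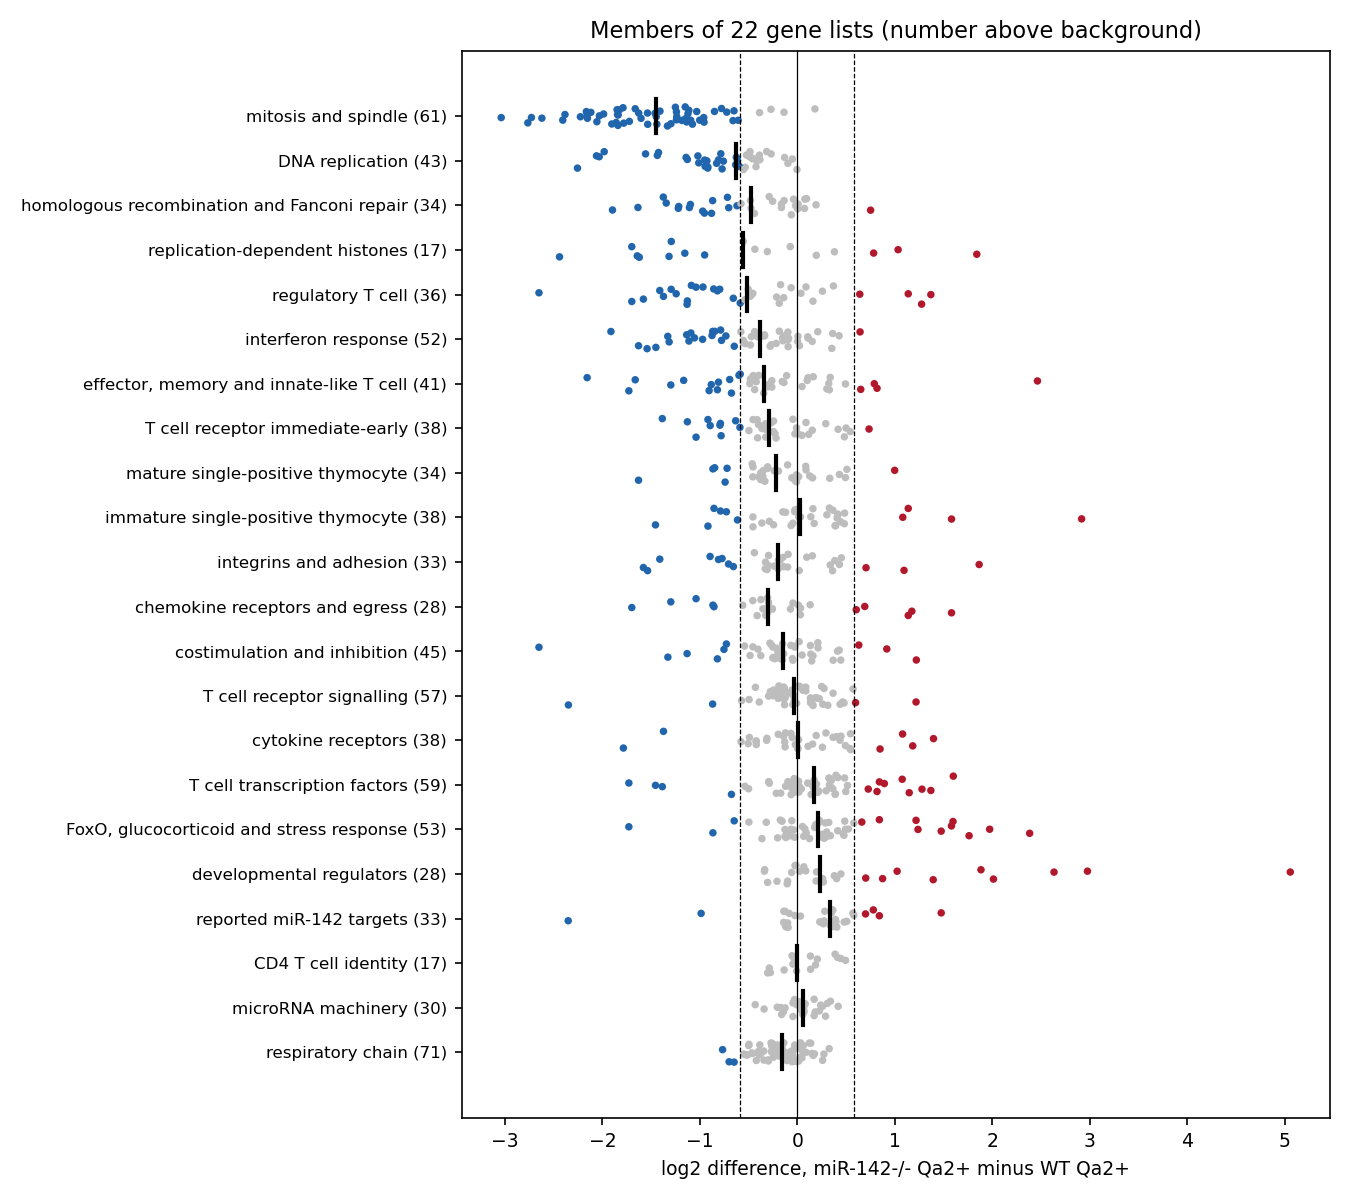
Log2 difference, miR-142-/- Qa2+ minus WT Qa2+ (x axis), of the members of 22 gene lists (y axis, with the number above background). Each point is a gene, blue if at least 1.5-fold lower and red if at least 1.5-fold higher, and the bar is the list median, from -1.45 for mitosis to 0.34 for reported miR-142 targets.

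Maturation genes of single-positive thymocytes did not separate cleanly. Of 34 genes of mature cells, 5 (14.7%) were at least 1.5-fold lower and 1 (2.94%) higher, against 4.89% and 4.51% of all genes. Their median was -0.22. The lower ones were Ms4a4c, Klf2, Usp18, Dapl1 (9.72 in WT and 8.98 in miR-142-/-) and the Ras inhibitor Rasa3 (11.60 in WT and 10.88 in miR-142-/-), and the higher one was the sodium pump subunit Atp1b1 (10.93 in WT and 11.93 in miR-142-/-). S1pr1, the receptor that guides cells out of the thymus, read 11.97 in WT and 11.51 in miR-142-/-, a difference of -0.46 against -1.70 in Qa2- cells. Of 38 genes of immature cells, 6 were lower (15.8%) and 4 higher (10.5%), with a median of 0.02. Ccr9, which holds thymocytes in the thymic environment and marks gut-homing cells, read 10.77 in WT and 12.35 in miR-142-/- (2.99-fold higher). Ccr4, which attracts newly selected cells into the medulla, lay the other way (9.45 in WT and 8.60 in miR-142-/-), as did Id3, an inhibitor of E proteins (9.04 in WT and 7.58 in miR-142-/-). The template-independent polymerase gene Dntt read 8.46 in WT and 9.54 in miR-142-/- and the recombinase gene Rag1 8.63 in WT and 8.02 in miR-142-/-.

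Homing and adhesion genes went both ways. Of 28 chemokine receptor and egress genes, 5 passed 1.5-fold upward and 5 downward (17.9% each way, against 4.51% and 4.89% of all genes). Cxcr4, the receptor for CXCL12, read 10.20 in WT and 11.37 in miR-142-/- (2.26-fold higher) and Gpr183, an oxysterol receptor, 9.83 in WT and 10.52 in miR-142-/-, while Ccr7, the receptor for lymph node entry, read 12.28 in WT and 11.98 in miR-142-/-. Rgs1, which damps chemokine signals, read 9.11 in WT and 8.07 in miR-142-/-. Among 33 integrin and adhesion genes, 8 were lower (24.2%) and 3 higher (9.09%). Jaml, an adhesion molecule of activated T cells, read 7.28 in WT and 5.75 in miR-142-/-, so it was at least 2.67-fold lower, and Spn, the sialoprotein CD43, 10.17 in WT and 9.27 in miR-142-/-. Higher were the neural adhesion gene Chl1 (6.50 in WT and 8.36 in miR-142-/-, 3.64-fold), the CD6 ligand Alcam (6.57 in WT and 7.66 in miR-142-/-) and Itga3 (6.37 in WT and 7.08 in miR-142-/-). Of the semaphorin and guidance genes, Sema4a read 10.52 in WT and 8.94 in miR-142-/- and the kinase-dead ephrin receptor Ephb6 9.11 in WT and 10.67 in miR-142-/-.

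T cell receptor signalling components were mostly alike, with 2 of 57 genes at least 1.5-fold higher, 2 lower and a median of -0.04. Tagap, a GTPase-activating protein that acts in thymocyte selection, was the exception by size (10.22 in WT and 7.87 in miR-142-/-, 5.09-fold lower). Pik3ip1, an inhibitor of phosphoinositide 3-kinase, read 10.21 in WT and 11.43 in miR-142-/- (2.32-fold higher), Malt1 had a difference of 0.60 (under 1.5-fold after median centring), and the adaptor gene Sh2d2a of -0.87. Cd3e read 12.81 in WT and 12.75 in miR-142-/- and Cd5, which tracks signal strength, 12.40 in WT and 12.36 in miR-142-/-. The immediate-early genes that the receptor induces had a median of -0.29 against -0.01 in Qa2- cells. Of these 38 genes, 10 (26.3%) were at least 1.5-fold lower and 1 (2.63%) higher in Qa2+ cells. Irf4, whose level follows signal strength, read 8.69 in WT and 7.30 in miR-142-/-, and the MAP kinase phosphatases Dusp4 and Dusp5 had differences of -1.13 and -0.79. Nr4a3, Fosl2 and Fos had differences of -0.92, -0.89 and -0.79 in Qa2+ cells and of 0.03, 0.07 and 0.02 in Qa2- cells. Nfkbia, the inhibitor of NF-kB, was the higher one (10.98 in WT and 11.72 in miR-142-/-).

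Among 33 NF-kB genes, 5 were at least 1.5-fold lower (15.2%) and 3 higher (9.09%), against 4.89% and 4.51% of all genes. Traf1, an NF-kB target and adaptor of TNF receptors, read 9.87 in WT and 7.91 in miR-142-/- and Cd83, which stabilises class II molecules in the thymus, 7.47 in WT and 6.50 in miR-142-/-. Of 45 costimulatory and inhibitory receptors, 6 were lower (13.3%) and 3 higher (6.67%). Cd80 read 6.86 in WT and 5.53 in miR-142-/- (a difference of -1.33, or -0.76 with the mean of its probe sets), the inhibitory receptor Tigit 8.29 in WT and 7.16 in miR-142-/- and the costimulator Tnfrsf4 10.96 in WT and 10.14 in miR-142-/-, while Cd86, the other ligand of CD28 and CTLA4, read 7.61 in WT and 8.83 in miR-142-/- (2.33-fold higher). Among cytokine receptors Il10ra read 8.38 in WT and 6.60 in miR-142-/- (3.44-fold lower), with 8.37 and 8.16 on the Qa2- arrays. Bmpr2, a receptor for bone morphogenetic proteins, read 9.18 in WT and 10.57 in miR-142-/- and the growth factor receptor Igf1r 8.96 in WT and 10.14 in miR-142-/-. Il7r, the receptor that sustains naive T cells, read 12.23 in WT and 12.72 in miR-142-/-. In the list of innate sensing, Ly96, the coreceptor of TLR4, read 7.63 in WT and 5.88 in miR-142-/- and Tlr1 9.76 in WT and 8.58 in miR-142-/-.

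Of 59 transcription factors of T cells, 9 (15.3%, against 4.51% of all genes) were at least 1.5-fold higher and 4 (6.78%, near the 4.89% of all genes) lower, with a median of 0.17. Tcf4, an E protein, read 7.44 in WT and 9.04 in miR-142-/- (3.03-fold higher), Myb, a factor of progenitors and thymocytes, 10.35 in WT and 11.63 in miR-142-/-, and the RNA-decay factor Zfp36l2 11.57 in WT and 12.71 in miR-142-/-. Lmo2, a progenitor factor, read 6.99 in WT and 8.06 in miR-142-/- and Nfix 8.83 in WT and 9.72 in miR-142-/-. Those that define the CD4 programme were closer: Gata3 had a difference of -0.29, Zbtb7b of 0.39, Bcl11b of 0.20 and Satb1 of 0.36. 

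Genes that respond to glucocorticoids, FoxO factors and stress had 10 of 53 members at least 1.5-fold higher (18.9%, against 4.51% of all genes), 3 lower and a median of 0.22. Fkbp5, a chaperone of the glucocorticoid receptor and its classical target, read 9.20 in WT and 11.17 in miR-142-/- (3.92-fold higher). Ddit4, which restrains mTOR, read 9.70 in WT and 11.46 in miR-142-/-, Per1 8.87 in WT and 10.34 in miR-142-/- and Arrdc4, an arrestin that limits glucose uptake, 6.38 in WT and 7.97 in miR-142-/-. The angiogenic factor Vegfa read 6.95 in WT and 8.53 in miR-142-/-. The glucocorticoid receptor gene Nr3c1 had a difference of 0.58. Of 14 circadian clock genes, a set put together after values were seen, 4 were at least 1.5-fold higher, none was lower and the median was 0.40. Besides Per1, these were the repressors Nr1d2 (7.92 in WT and 9.16 in miR-142-/-), Ciart (6.92 in WT and 8.00 in miR-142-/-) and Bhlhe40 (7.42 in WT and 8.26 in miR-142-/-), while Per2 and Nr1d1 had differences of -0.17 and -0.12. Among 36 apoptosis genes, the BH3-only genes Bmf (7.43 in WT and 9.20 in miR-142-/-, 3.39-fold) and Bbc3 (6.54 in WT and 7.58 in miR-142-/-) were higher, and the survival gene Bcl2l1 had a difference of -0.61.

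Of 33 reported miR-142 targets above background, 22 had a difference above 0 and 11 below, with a median of 0.34 against 0.00 for all genes and 0.16 for the list in Qa2- cells. At 1.5-fold, 4 (12.1%, against 4.51% of all genes) were higher and 2 (6.06%, against 4.89%) lower, so few members stand behind these shares. The higher ones were Per1, the chromosome orientation gene Bod1 (6.89 in WT and 7.73 in miR-142-/-), the cofilin gene Cfl2 (9.32 in WT and 10.10 in miR-142-/-) and the GTPase-activating protein gene Arhgap35 (8.86 in WT and 9.55 in miR-142-/-). E2f8 and E2f7, cell cycle genes counted above, were the lower ones. The members with the highest signal, Rac1, a small GTPase, and Il6st, the shared receptor chain of the interleukin-6 family, had differences of 0.34 and 0.37.

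Among 70 genes of actin and its small GTPases, 5 were at least 1.5-fold higher and 8 lower, with a median of -0.11. Besides Coro2a, the GTPase-activating protein gene Arhgap29 was higher (7.91 in WT and 9.26 in miR-142-/-). Lower were the crosslinker Actn1 (11.74 in WT and 10.56 in miR-142-/-), the filamin partner Rflnb (10.59 in WT and 9.24 in miR-142-/-), the guanine exchange factor Swap70 (8.29 in WT and 7.20 in miR-142-/-) and Arhgap19 (8.12 in WT and 6.64 in miR-142-/-), a GTPase-activating protein of dividing cells. Actin itself, Actb, read 13.70 in WT and 13.75 in miR-142-/-. Of 37 genes of cyclic AMP and adenosine signalling, 6 were higher and 3 lower: the phosphodiesterase Pde7b read 7.30 in WT and 9.02 in miR-142-/- and the proton receptor Gpr65 had a difference of 1.41. The adenosine kinase Adk read 9.29 in WT and 7.78 in miR-142-/- and the kinase subunit Prkar2a 6.83 in WT and 5.68 in miR-142-/-.

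Of 72 ubiquitin ligase and deubiquitinase genes, 4 passed 1.5-fold upward and 4 downward, or 5.56% each way, near the 4.51% and 4.89% of all genes. Neurl3, also called Lincr, read 8.56 in WT and 6.05 in miR-142-/- (5.70-fold lower), whereas Hectd2 read 7.73 in WT and 9.58 in miR-142-/- and Nedd4 9.29 in WT and 10.94 in miR-142-/-. Among membrane transporters Sidt1, a relative of nematode RNA channels, had the second largest downward difference of the ranked genes after Mir142 (10.42 in WT and 7.36 in miR-142-/-, 8.32-fold lower). It read 8.67 and 7.04 on the Qa2- arrays. The drug exporters Abcb1a and Abcb1b read 7.18 in WT and 8.30 in miR-142-/- and 7.17 in WT and 8.45 in miR-142-/-. The nucleoside carriers Slc28a2 and Slc28a2b read 10.18 in WT and 8.93 in miR-142-/- and 8.97 in WT and 7.46 in miR-142-/-. The ATP-gated channel P2rx7 read 8.71 in WT and 6.99 in miR-142-/- (3.29-fold lower). H2-Ob, a chain of the class II modulator H2-O, read 9.66 in WT and 7.76 in miR-142-/-, and the protease cathepsin E gene Ctse 10.14 in WT and 8.56 in miR-142-/-. Gimap7 stood apart from the other 15 Gimap and Schlafen genes at 9.08 in WT and 7.42 in miR-142-/-, since the rest were within 1.5-fold.

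Further signalling lists were divided. In the Wnt list, 5 of 34 members passed 1.5-fold upward and 1 downward. Besides Rnf43, the higher ones included the Wnt antagonist gene Sfrp2 (5.03 in WT and 7.02 in miR-142-/-, at least 2.22-fold). The receptor gene Fzd6 was below background in WT (5.77 in WT and 6.65 in miR-142-/-). The others were the effector gene Ctnnb1, which encodes beta-catenin (11.27 in WT and 12.16 in miR-142-/-), and its partner Tcf7l2 (6.43 in WT and 7.13 in miR-142-/-). The corepressor gene Tle3 had a difference of -0.71. In the Notch list, 2 of 33 were higher (6.06%, near the 4.51% of all genes). These were the Notch target genes Hes1 (5.48 in WT and 6.35 in miR-142-/-) and Hey1 (5.86 in WT and 6.86 in miR-142-/-). Both lay below background in WT, so the size of their differences is uncertain. The growth factor and MAP kinase list had 6 of 52 higher and 6 lower, with the neurotrophin receptor gene Ntrk3 (6.67 in WT and 8.22 in miR-142-/-) and the growth factor gene Fgf2 (6.23 in WT and 7.27 in miR-142-/-) among the higher. Of 26 SOCS and JAK-STAT genes 1 was higher and 2 were lower: Stat4, which transmits interleukin-12 signals, read 11.03 in WT and 10.18 in miR-142-/-, and the kinase gene Pim1 9.33 in WT and 8.42 in miR-142-/-. The p53 target list had 3 of 27 in each direction, of which Ptpn14 (6.84 in WT and 8.07 in miR-142-/-), a phosphatase gene, had the largest difference.

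Lists of the secretory and lysosomal system and of transport had members past 1.5-fold in both directions. Their shares stand beside 4.51% higher and 4.89% lower of all genes. Of 51 glycosyltransferase and Golgi mannosidase genes, 6 were at least 1.5-fold lower (11.8%) and 2 higher (3.92%). They ranged from B4galt5 (9.20 in WT and 8.17 in miR-142-/-), a lactosylceramide synthase gene, to B3gnt3 (7.49 in WT and 8.73 in miR-142-/-), which extends glycans for selectin ligands. Of 44 autophagy and lysosome genes, 4 were lower (9.09%) and 2 higher (4.55%), and the protease gene Lgmn read 8.50 in WT and 7.52 in miR-142-/-. Of 41 heat shock and unfolded protein genes, 3 were higher (7.32%) and 1 lower (2.44%). The cochaperone gene Bag3 read 6.64 in WT and 7.87 in miR-142-/- and Sdf2l1, of the endoplasmic reticulum, 8.36 in WT and 7.06 in miR-142-/-. Among 56 solute carriers and transporters, 6 were higher (10.7%) and 5 lower (8.93%). The amino acid carrier genes Slc7a5 and Slc7a1 had differences of -0.97 and -0.70, and Slc12a2, a sodium, potassium and chloride cotransporter gene, of 1.13. Of 42 ion channel and calcium genes, 3 were higher (7.14%) and 4 lower (9.52%), and the calcium channel subunit gene Orai2 read 10.73 in WT and 9.78 in miR-142-/-.

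Ribosomal and respiratory genes differed little. Of 50 cytosolic ribosomal protein genes, 1 (Rps12, 11.59 in WT and 10.98 in miR-142-/-) was 1.5-fold lower, though not after quantile scaling, and of 71 respiratory chain genes 3 were, with medians of -0.13 and -0.15. Glycolysis genes had 3 of 27 lower, among them Pgam1 (10.09 in WT and 9.10 in miR-142-/-) and Tpi1 (9.34 in WT and 8.59 in miR-142-/-), and a median of -0.12. Sterol and lipid genes had 4 of 46 higher, 3 lower and a median of -0.19, with the fatty acid synthase gene Fasn at 9.80 in WT and 9.03 in miR-142-/-. Chromatin regulators had 6 of 74 (8.11%, against 4.89% of all genes) lower and none higher: besides Asf1b, Hmgb2, a chromatin protein of dividing cells, read 9.42 in WT and 8.20 in miR-142-/- and the remodeller Hells 7.82 in WT and 6.94 in miR-142-/-. Nucleotide and one-carbon metabolism had 8 of 39 (20.5%) lower and 1 higher, and these include Rrm2, Rrm1, Tyms and Tk1 of the replication list.

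In the marker lists of cells outside the gate, many members lay below background. Of 19 B cell markers listed, 8 were above background and 1, Ly6d, which thymocytes also carry, was 1.5-fold higher (8.75 in WT and 9.65 in miR-142-/-). The median level of these 8 was 7.14 in WT and 6.96 in miR-142-/-. Myeloid and dendritic markers had 12 of 32 above background with median levels of 6.60 and 6.41. Of these, 2 were at least 1.5-fold higher and 2 lower (16.7% each way, against 4.51% and 4.89% of all genes). Their differences ran from -0.81 to 1.58. The largest was that of Ccr9, which is described above as a gene of thymocytes. Lyz2 read 7.48 in WT and 6.67 in miR-142-/-, Cd68 8.13 in WT and 7.49 in miR-142-/- and Sirpa 6.36 in WT and 7.15 in miR-142-/-. Thymic stroma markers had 16 of 23 above background with a median of 0.05, and Krt8 read 6.56 in WT and 7.48 in miR-142-/-. Of 10 natural killer cell markers above background, Il2rb and Gzmb were 1.5-fold lower (20%), and the median levels were 6.76 and 6.70. Gzmb ended below background (6.02 in WT and 5.43 in miR-142-/-), so it was at least 1.11-fold lower. The 3 erythroid and platelet markers above background were less than 1.5-fold apart. Of the gamma-delta T cell markers, 3 of 7 were higher, among them Maf, the scavenger receptor gene 5830411N06Rik (6.57 in WT and 7.98 in miR-142-/-) and Etv5 (6.57 in WT and 7.25 in miR-142-/-), while Sox13 and Blk had differences of 0.02 and 0.12. Double-positive thymocyte markers had a median of 0.30, with 2 of 25 higher and 3 lower. Cpa3, a protease of mast cells and basophils, read 5.46 in WT and 8.60 in miR-142-/-, at least 6.66-fold higher, with 5.07 and 5.58 on the Qa2- arrays. Of 11 further genes of these cells, put together after values were seen, the proteases Mcpt8 (4.88 in WT and 7.44 in miR-142-/-) and Prss34 (6.03 in WT and 7.58 in miR-142-/-) were higher too, whereas the other 9 had differences between -0.25 (Il4) and 0.30 (Gata2). Their defining receptor genes Fcer1a and Ms4a2 were below background on both Qa2+ arrays (Fcer1a 4.56 in WT and 4.69 in miR-142-/-, Ms4a2 4.63 in WT and 4.85 in miR-142-/-). The part of any of these cell types in the results was not tested.

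The genotype difference in Qa2+ cells was at least 1 log2 unit above that in Qa2- cells for 40 genes and at least 1 below it for 31. Values are set side by side here, and with 1 array per group this difference of differences was not tested. Cpa3, Ccl3, Mpzl2, Sfrp2 and Ccr9 were higher in miR-142-/- Qa2+ cells by 3.15, 2.46, 1.97, 1.99 and 1.58 log2 units, and had Qa2- differences of 0.52, -0.05, 0.12, 0.44 and 0.05. For Ccr9 the WT level was 12.68 in Qa2- and 10.77 in Qa2+ cells, while the miR-142-/- levels were 12.73 and 12.35, so the stages were far apart in WT and close in miR-142-/-. For Chl1 the WT levels of Qa2- and Qa2+ cells were 9.48 and 6.50, and those of miR-142-/- cells 9.93 and 8.36. A different route led Nkg7, Gzmb and Klrd1, genes of cytotoxic cells, into this group: their Qa2+ differences were -0.45, -0.59 and -0.29 and their Qa2- differences -3.47, -3.26 and -2.70.

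In the other direction, Il10ra, Itgb8, Id3 and Jaml were lower in miR-142-/- Qa2+ cells, with differences of -1.78, -1.41, -1.46 and -1.54 and Qa2- differences of -0.21, 0.13, -0.08 and -0.11. Sidt1 read 8.67 in Qa2- and 10.42 in Qa2+ cells of WT, whereas its miR-142-/- levels were 7.04 and 7.36, so the stages were apart in WT and closer in miR-142-/-. Fstl4, Lix1 and Acvr1c, with Qa2- differences of 2.84, 2.63 and 2.17, had Qa2+ differences of 0.38, 0.73 and 0.72 near background. Dapl1, a gene of naive and mature T cells, was higher in miR-142-/- Qa2- cells (7.11 in WT and 8.64) and lower in Qa2+ cells (9.72 and 8.98).

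**Figure D5:**
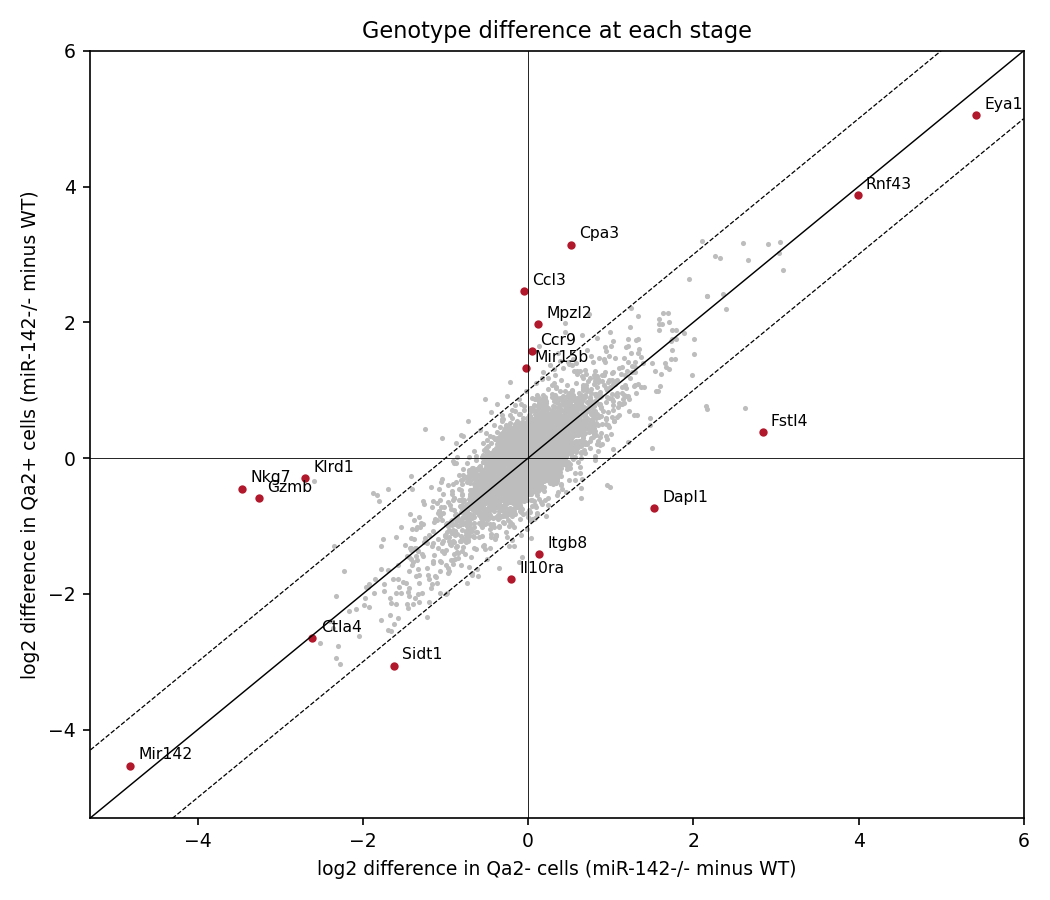
Log2 genotype difference, miR-142-/- minus WT, in Qa2- cells (x axis) and Qa2+ cells (y axis) for 12205 genes. Both come from the same pools; the solid line marks equal differences, the dashed lines 1 log2 unit around it, and red points are named genes such as Cpa3 (3.15 in Qa2+ and 0.52 in Qa2-) and Dapl1 (-0.74 and 1.53).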

How the data were processed

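RNA of the 4 sorted populations was hybridised to Affymetrix Mouse Gene 1.0 ST arrays, and the authors deposited log2 expression levels per probe set, made with RMA in Partek per the submitters' processing notes (their versions are not given in the sources used here). This method draws all arrays towards 1 distribution, so a shift shared by most genes would largely not be seen. The medians over all probe sets were still 6.61 on the WT and 6.67 on the miR-142-/- Qa2+ array, a shift of 0.06. Of 35557 probe sets, 21789 list 1 gene, and 21698 of these matched a gene record; probe sets listing several genes or none were left out. Of several probe sets for a gene (993 genes), the one with the highest mean over the arrays was used. A gene was kept when this mean lay above the background threshold. Differences were computed with Python 3.11.15, pandas 2.3.3 and numpy 2.4.6, drawn with matplotlib 3.10.9, and checked on simulated data; no test across genes was made. Genes and gene lists were chosen with earlier results of these data known. Named genes were drawn from the 30 largest differences and the 15 largest differences of differences in each direction. These rankings left out predicted genes, pseudogenes, smell and pheromone receptor genes and antigen receptor segments. Others came from up to 8 members of each list at least 1.5-fold apart and the 2 with the highest level. All members of lists with 12 or fewer above background were open to naming too. Not every gene of these sets is named. The following were named after their values were seen: Snx10, Skap2, Hibadh, Hoxa4, Hoxa10, Hoxa11, Hoxa13, Pbx3, Six2, Six3, Six5, Mtmr4, Septin4, Dynll2, Mirlet7e, Mir99b, Mir125a, Mir16-2, Msh6, H1f2, H2bc8, Ndc80, Pttg1, Ska2, Oas3, Irf7, Iigp1, Il2ra, Cd44, Gpr183, Itga3, Nfix, Gata3, Zbtb7b, Bcl11b, Nr3c1, the clock genes other than Per1 and Nr1d2, the mast cell genes other than Cpa3, Slc28a2 and Slc28a2b.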

Additional observations from a re-analysis of the deposited data

Results flagged for a closer look

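Dapl1 and Cybrd1 differed in opposite directions at the 2 stages, each by at least 1.5-fold. Dapl1 had a difference of -0.74 in Qa2+ and 1.53 in Qa2- cells. Cybrd1, a ferric reductase, had a difference of -0.59 in Qa2+ (6.92 in WT and 6.34 in miR-142-/-) and 0.64 in Qa2- cells (6.84 in WT and 7.47 in miR-142-/-). With 1 array per group, the difference between the stages was not tested.

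Probe sets that list several genes were in no comparison. The array holds 1621 of them, and those above background were counted, with X- and Y-linked genes kept. Of these, 15 were at least 2-fold higher in miR-142-/- Qa2+ cells and 5 lower. Several of the higher ones list Sympk with Notch4 or Erbb2, with differences from 1.62 to 2.84. Most of the lower ones list the same H3c histone genes. The counts therefore hold repeats and are not counts of genes. The largest was a probe set of the gamma-delta receptor segments Trgv6 and Trgv4, at 6.73 in WT and 10.52 in miR-142-/-, while other Trgv probe sets had differences of 1.28 and 1.29.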

How the results depend on the processing

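Other choices were the mean of a gene's probe sets, other background thresholds or none, X- and Y-linked genes kept, and median centring, quantile scaling or a loess correction of the arrays. Under these the number of genes at least 2-fold higher lay between 151 and 184 (170 as reported) and of those lower between 181 and 258 (228 as reported). At 1.5-fold the ranges were 446 to 605 and 493 to 727. No named difference of 1.5-fold or more turned its sign. With the threshold at the 99th percentile, 4 of 57 list medians moved by more than the receptor scatter of 0.18. The median of myeloid and dendritic cell markers turned from -0.23 to 0.79. This threshold changes no difference, only which genes are kept. Fewer of the 12 members of that list were left, so its turn is no reversal of the list. With the mean of probe sets 7 of 432 named differences moved, among them Top2a (-2.62 to -1.21), Cd80 (-1.33 to -0.76) and Socs6 (0.60 to 0.31), and the small differences of Gabarapl2 (-0.06 to 0.40) and Sema4d (-0.22 to 0.02) turned their sign. None of the other choices moved one by more than that scatter. Without the genes of the proliferation lists, an alternative chosen after seeing the data, 168 genes passed 2-fold upward and 149 downward, so the share of higher genes among both was 53% in place of 42.7%. Ctsl, Dnajc3, Eno3, Nr1h3 and Socs6 were under 1.5-fold after median centring and after quantile scaling. So were Malt1, Mpo and Scd2 after centring alone, Ccnd2, Plxna1 and Rps12 after quantile scaling alone, and Bnip3 and Socs6 with the mean of probe sets. Leaving out a replicate was not possible with 1 array per group. No paired analysis was possible because each group holds 1 pooled sample. Precision is limited by the number of arrays: the spread between mice is unknown, and signals near background compress differences.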

Other observations

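Genes outside the lists also differed at least 2-fold in miR-142-/- Qa2+ cells, and all named here were chosen after their values were seen. Higher were Galc, a lysosomal enzyme of myelin lipids (7.27 in WT and 9.15 in miR-142-/-), Alox5ap, which presents arachidonic acid for leukotriene synthesis (6.65 in WT and 8.40 in miR-142-/-), and Marcks, a protein kinase C substrate at the membrane (7.69 in WT and 8.87 in miR-142-/-). Marcks had a difference of 0.17 in Qa2- cells. Lower were Syt11, a synaptotagmin of vesicle traffic (8.28 in WT and 6.28 in miR-142-/-), Ifi30, a lysosomal thiol reductase (10.33 in WT and 8.34 in miR-142-/-), Ankrd55 (8.71 in WT and 6.71 in miR-142-/-) and Ticrr, a regulator of replication origins (8.09 in WT and 6.11 in miR-142-/-). Their Qa2- differences were -1.34, -1.28, -1.06 and -1.60, in the same order.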
